A study of Mus musculus with 6 samples.

Results

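Mitochondrial oxidative phosphorylation was examined through the genes of its subunits in the livers of 8-week-old male mice. The genes were taken by symbol from the array's annotation: those starting with Nduf (assembly factors named Ndufaf left out), Uqcr, Cox4 to Cox8 or Atp5, and Sdha, Sdhb, Sdhc, Sdhd, Cyc1 and Cycs. Pseudogene symbols were left out, and a gene with several probe sets was represented by the probe set with the highest mean over all 6 arrays. This gave 86 genes of 30145 genes named on the array, with 36 in complex I, 4 in complex II, 9 in complex III, 18 in complex IV, 18 in complex V (ATP synthase) and cytochrome c as a single gene. Apart from the choice of probe set, the rule uses symbols alone, but it was set with earlier results of these data known. The genes matched 91 probe sets of 65956, since Atp5d, Atp5g2, Atp5l and Cycs had more than 1. Another 4 probe sets that list such a symbol together with a second gene, and the 2 pseudogene symbols Atp5l-ps1 and Atp5c1-ps, were not used.

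The study hybridised liver RNA of 6 mice to 1 Affymetrix array each. The HFD-inulin group held 3 male offspring of mothers treated with inulin, a fermentable plant fibre, and the HFD group 3 male offspring of mothers on a high-fat diet. Both titles name HFD, and the labels give neither the offspring's diets nor strain or litters, so the spread between arrays may be partly technical or shared. Hepatocyte markers were bright on every array, with Alb, the serum albumin gene, between 11.4 and 11.6 on the log2 scale, while the mean of 6 markers of skeletal and cardiac muscle lay between 2.10 and 2.16 in HFD-inulin arrays and 2.14 and 2.20 in HFD arrays. Adipoq and Ucp1 of the adipocyte markers, Ms4a1 of the lymphocyte markers, Ngp of the neutrophil markers and Myl1 of the muscle markers stayed under the median probe set (1.22) on every array.

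The respiratory chain passes electrons from NADH through complex I, and from succinate through complex II, to ubiquinone, then through complex III to cytochrome c and through complex IV to oxygen. Complexes I, III and IV pump protons across the inner mitochondrial membrane, and ATP synthase lets them flow back to make ATP. In the liver this ATP pays for glucose and urea synthesis. All complexes but complex II also hold subunits encoded by mitochondrial DNA, which were not analysed here. In mammalian cells the nuclear subunit genes are commonly bound at their promoters by NRF1, GABPA (an ETS family factor), YY1 and ERR alpha, which act with the coactivators PGC-1 alpha and PGC-1 beta, the products of Ppargc1a and Ppargc1b.

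Of the 86 genes, 68 have an entry in the RefSeq promoter table (build GRCm38.p6, 250 bases before the start to 50 after it). The promoters of 4 genes described below are shown because these genes had among the larger differences between groups, Cycs through HFD-inulin 1 and 2 alone, and because each holds a motif of a factor named above. Capitals mark the motif match, and positions count from 1 at the 5′ end, with the start at 251. Atp5g2 (chr15:102670998-102671297, minus strand) holds the NRF1 core motif GCGCATGC on both strands, in overlapping matches. Cycs (chr6:50566520-50566819, minus strand) holds the same core on the opposite strand. Cox6b1 (chr7:30626065-30626364, minus strand) holds the ETS motif CCGGAAG on the opposite strand, and Ndufs7 (chr10:80249199-80249498, plus strand) holds the YY1 motif AAGATGGC.
Atp5g2: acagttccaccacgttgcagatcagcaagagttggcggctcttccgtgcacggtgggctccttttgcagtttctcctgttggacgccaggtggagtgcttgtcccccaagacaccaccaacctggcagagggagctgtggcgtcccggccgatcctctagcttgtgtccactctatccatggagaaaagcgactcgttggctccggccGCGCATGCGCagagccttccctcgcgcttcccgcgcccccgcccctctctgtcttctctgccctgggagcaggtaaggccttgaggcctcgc
Cycs: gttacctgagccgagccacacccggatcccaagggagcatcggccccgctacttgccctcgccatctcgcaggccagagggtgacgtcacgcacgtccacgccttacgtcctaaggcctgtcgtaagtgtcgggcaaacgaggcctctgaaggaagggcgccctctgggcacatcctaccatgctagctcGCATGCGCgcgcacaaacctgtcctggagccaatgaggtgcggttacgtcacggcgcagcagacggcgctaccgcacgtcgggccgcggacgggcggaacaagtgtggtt
Cox6b1: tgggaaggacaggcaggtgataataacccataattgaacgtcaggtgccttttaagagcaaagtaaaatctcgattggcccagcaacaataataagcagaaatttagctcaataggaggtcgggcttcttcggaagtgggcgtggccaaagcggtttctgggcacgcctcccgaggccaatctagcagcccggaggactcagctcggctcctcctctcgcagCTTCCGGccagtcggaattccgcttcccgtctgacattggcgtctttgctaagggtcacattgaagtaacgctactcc
Ndufs7: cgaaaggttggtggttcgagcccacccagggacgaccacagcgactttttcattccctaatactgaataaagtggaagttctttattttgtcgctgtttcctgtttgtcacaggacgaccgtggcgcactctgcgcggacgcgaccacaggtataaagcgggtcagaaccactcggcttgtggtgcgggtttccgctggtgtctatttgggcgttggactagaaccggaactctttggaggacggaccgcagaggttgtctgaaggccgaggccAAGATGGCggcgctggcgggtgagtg
The matches begin at position 209 in Atp5g2, 191 in Cycs, 223 in Cox6b1 and 275 in Ndufs7.

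Searched on both strands, the NRF1 core GCGCATGC occurred in 10 of the 68 promoters (14.7%), against 2.8% of all 27025 promoters in the table and 3.6% of the 17491 promoters of protein-coding genes. The ETS motif CCGGAAG occurred in 16 (23.5%, against 9.12% and 11.9%) and the YY1 motif AAGATGGC in 9 (13.2%, against 2.88% and 3.22%). The ERR motif TCAAGGTCA occurred in 2, Atp5g3 and Sdhd (2.94%, against 0.407% and 0.332%). A match describes these letters in this window and shows no binding in these livers.

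The arrays did not fall apart by group in signals numbered on chromosome Y. A set of 246 probe sets numbered on chromosome Y, each sharing its 6 values exactly with another probe set, separated HFD-inulin 1 and 2 with HFD 1 (means from 1.34 to 1.91, called low-signal arrays below) from HFD-inulin 3 with HFD 2 and 3 (means from 2.99 to 3.24, called high-signal arrays). What set these arrays apart was not tested. Each complex and each list of pathway genes below is given for all 6 arrays and within these parts, as are the subunit genes with an unadjusted p under 0.05. The cell type markers and many single genes are given by array or by group only. Here the low-signal part sets HFD-inulin 1 and 2 against HFD 1 and the high-signal part sets HFD-inulin 3 against HFD 2 and 3.

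The subunit genes had mostly higher means in HFD-inulin livers, by small amounts, and none passed the adjusted threshold of 0.05. In HFD-inulin 71 of the 86 genes (82.6%) had the higher mean, and the median log2 difference was 0.12 (range -0.24 to 0.45), where 43.5% of all probe sets had a higher mean and the median was -0.016. Brighter named genes also leaned upward: among the 9525 with a mean log2 signal of at least 3, 61.1% were higher with a median of 0.045, against 65 of 74 subunit genes at that level (87.8%, median 0.14). In limma, after Benjamini-Hochberg adjustment across the whole table, 0 subunit genes were called, as were 0% of probe sets. The smallest adjusted p among the subunit genes was 0.902.

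At an unadjusted limma p under 0.05, 6 subunit genes were higher (6.98%) and 0 were lower, beside 2.52% and 2.64% of all probe sets. Among the brighter named genes the share higher at that threshold was 8.49%, and among the 74 brighter subunit genes it was 8.11%, so the count of single genes is near this background. The 3 HFD-inulin arrays lay above all 3 HFD arrays in 7 genes (8.14%) and below them in 0, where 4.32% and 6.02% of probe sets did so. For brighter named genes the share above was 10.2%. The count of 6 moved with single arrays: it was 1 without HFD-inulin 1, 0 without HFD-inulin 2 and 23 without HFD-inulin 3. It was 1 without HFD 2 and 2 without HFD 3. No share of all probe sets is given for these settings, so these counts cannot be read as particular to the subunit genes. The median difference was 0.030 without HFD-inulin 1, 0.065 without HFD 2 and 0.20 without HFD-inulin 3.

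**Figure D1:**
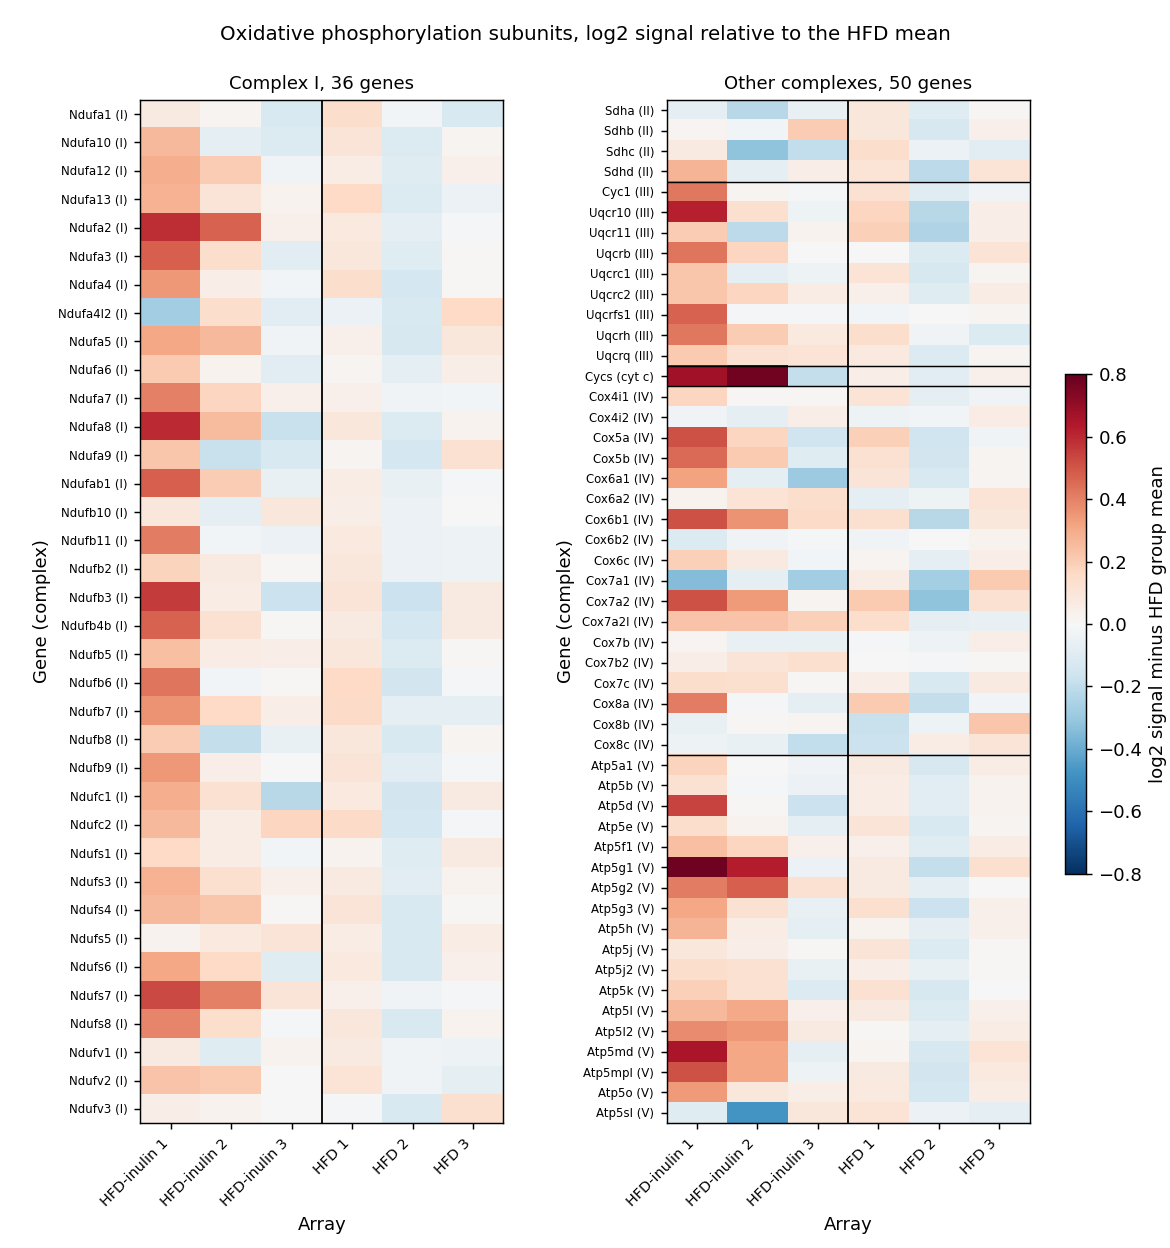
Each row is a subunit gene with its complex and each column an array; the colour is the log2 signal minus the mean of the 3 HFD arrays, with red above and blue below. HFD-inulin 1 is the reddest column, with the highest value of the 6 arrays in 65 of 86 genes, and HFD 2 is the column most often blue, with the lowest value in 56.

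The heat map of all subunit genes shows that the pattern followed arrays more than groups. HFD-inulin 1 was the highest of the 6 arrays in 65 genes (75.6%), against 22.9% of brighter named genes, and HFD 2 was the lowest in 56 (65.1%), against 22.2%. By complex, HFD-inulin 1 was highest in 31 of 36 complex I genes, 9 of 9 complex III genes, 10 of 18 complex IV genes and 14 of 18 complex V genes, but in 1 of 4 complex II genes. Within the HFD group, HFD 1 exceeded HFD 2 in 80 of 86 genes (93.0%, median 0.18), against 72.3% of brighter named genes. HFD 3 exceeded HFD 2 in 80 (median 0.13), against 50.6%. HFD-inulin 3 exceeded HFD 2 in 68 genes (79.1%) but HFD 3 in only 27 (31.4%, median -0.059) and HFD 1 in only 18 (20.9%, median -0.092). Among brighter named genes these shares were 55.5%, 53.2% and 34.7%. HFD-inulin 3 was the highest array in 4 genes and the lowest in 13.

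Averaged over the 86 genes, the distance of the log2 signal from the HFD mean was 0.27, 0.095 and -0.019 for HFD-inulin 1 to 3, and 0.073, -0.10 and 0.031 in HFD 1 to 3. The groups overlapped in this mean, because HFD-inulin 3 lay below HFD 1 and HFD 3. The low-signal part had 62 of 86 genes higher in HFD-inulin (median 0.098) and the high-signal part 48 (median 0.018). With the split fitted as a block the median was 0.060. Over the same arrays the mean distance of the 6 hepatocyte markers from their HFD mean was -0.26, -0.23 and -0.025 for HFD-inulin 1 to 3, against -0.025, 0.085 and -0.060 for HFD 1 to 3, and 5 of the 6 had a lower mean in HFD-inulin. Cps1, which starts urea synthesis, carried most of this, at 9.18 and 9.24 in HFD-inulin 1 and 2, against 10.03, 10.34 and 10.11 in HFD 1 to 3, with HFD-inulin 3 just under HFD 1, while Apoa1 was higher by 0.14. That of the 6 neutrophil markers was 0.034, 0.53 and 0.042 for HFD-inulin 1 to 3, against 0.10, -0.083 and -0.019 for HFD 1 to 3, at low levels (means of 1.25 to 1.74 in HFD-inulin arrays and 1.13 to 1.31 in HFD arrays). S100a8 and S100a9 led it in HFD-inulin 2, at 2.33 and 2.34, while Ngp, Ly6g and Mpo differed between groups by at most 0.035 either way. The 6 Kupffer cell markers stood at -0.12, -0.25 and -0.083 for HFD-inulin 1 to 3, against -0.15, 0.076 and 0.072 for HFD 1 to 3. Adgre1 and Timd4 were lower at an unadjusted limma p of 0.0247 and 0.0451. They are 33.3% of this list, beside 2.64% of all probe sets and 3.17% of brighter named genes. Cd5l and Marco were lower with an unadjusted limma p of 0.35 and 0.535, while Clec4f and Vsig4 were higher by 0.035 and 0.019. The 6 adipocyte markers stood at 0.21, 0.25 and -0.15 for HFD-inulin 1 to 3, against 0.11, -0.085 and -0.028 for HFD 1 to 3. Cidec, a lipid droplet gene that fatty liver also expresses, led this mean. It measured 5.56, 5.49 and 3.40 in HFD-inulin 1 to 3, against 4.65, 3.42 and 3.75 in HFD 1 to 3. Of the 6 adipocyte markers, 4 had a lower mean in HFD-inulin, and the median difference was -0.039. Of the 6 sinusoidal endothelium markers, 5 had a lower mean in HFD-inulin and 1 a higher one. Stab2 differed by -0.28, and its groups did not overlap. Of the 5 cholangiocyte markers, 2 were lower and 3 higher, from Spp1 at -0.22 to Krt19 at 0.40. The Spp1 groups did not overlap either. All 5 measured lymphocyte markers were lower, from -0.15 to -0.044. Of the 6 stellate cell markers, 3 were higher and 3 lower. The part of these cell types in the subunit values was not tested, and in whole liver fewer cells of a type and less RNA per cell cannot be told apart.

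**Figure D2:**
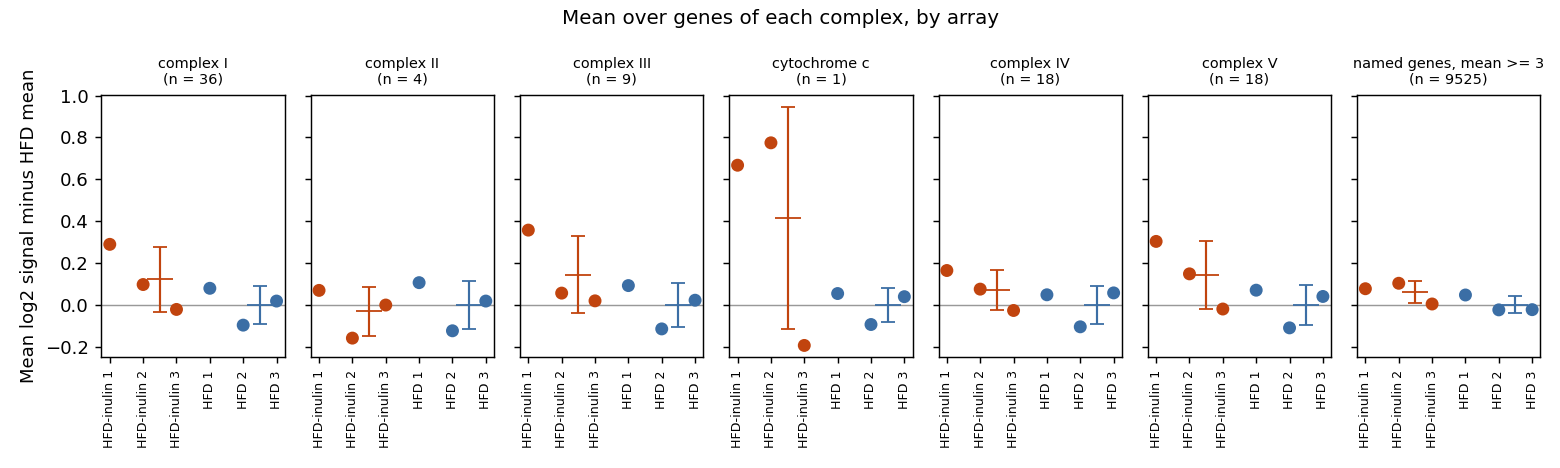
Points are the mean over the genes of each complex of the log2 signal minus the HFD mean, 1 point per array, with HFD-inulin in orange and HFD in blue; bars are the mean and SD over 3 arrays. The last panel holds the 9525 named genes with a mean log2 signal of at least 3. Complexes I, III, IV and V are highest in HFD-inulin 1, cytochrome c is high in HFD-inulin 1 and 2, and complex II is highest in HFD 1.

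Complex I, the NADH dehydrogenase, had 31 of 36 genes with a higher mean in HFD-inulin and a median difference of 0.13. Over its genes the average distance from the HFD mean was 0.29, 0.097 and -0.022 for HFD-inulin 1 to 3, against 0.079, -0.097 and 0.018 in HFD 1 to 3. The groups overlapped in this mean. Within the low-signal part 28 of 36 genes were higher (median 0.10), within the high-signal part 20 were (median 0.039), and the median with the split as a block was 0.067. The 6 core subunits analysed here (Ndufs1, Ndufs3, Ndufs7, Ndufs8, Ndufv1 and Ndufv2), which carry the flavin and iron-sulfur centres of the electron path or shape it, had a median of 0.15, and 28 accessory subunits had a median of 0.13. These role groups, and those of complexes IV and V below, were drawn up after the values were seen.

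Ndufs7, an iron-sulfur core subunit near the ubiquinone site, measured 6.17, 6.03 and 5.73 in HFD-inulin 1 to 3, against 5.67, 5.60 and 5.62 in HFD 1 to 3. All HFD-inulin arrays lay above all HFD arrays, and HFD-inulin 3 by only a little. The HFD-inulin mean was 5.98 ± 0.22 and the HFD mean 5.63 ± 0.04 (SD, n = 3 each). The log2 difference was 0.34 (SE 0.12, limma adjusted p = 0.902), 0.42 within the low-signal part, 0.12 within the high-signal part. Ndufa2, a small accessory subunit of the matrix arm, measured 5.95, 5.82 and 5.39 in HFD-inulin 1 to 3, against 5.44, 5.28 and 5.34 in HFD 1 to 3. Here HFD-inulin 3 fell within the HFD range, and the difference of 0.37 (SE 0.15, limma adjusted p = 0.902) was 0.45 within the low-signal part, 0.080 within the high-signal part.

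The accessory subunit genes Ndufa7 and Ndufb7 followed, with unadjusted p of 0.0824 and 0.119. Ndufa7 measured 4.19, 3.96 and 3.83 in HFD-inulin 1 to 3, against 3.83, 3.76 and 3.77 in HFD 1 to 3, a difference of 0.20. Ndufb7 measured 5.14, 4.95 and 4.83 in HFD-inulin 1 to 3, against 4.93, 4.70 and 4.72 in HFD 1 to 3, a difference of 0.19. In both the groups touched or overlapped, with HFD-inulin 1 on top.

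The core subunits named by rule beside Ndufs7 were Ndufv1 and Ndufs1, which had the smallest differences of the 6. Of the rest, Ndufs3 differed by 0.15, Ndufv2 by 0.15 and Ndufs8 by 0.17, with unadjusted limma p from 0.126 to 0.182. Ndufv1, which binds NADH and the flavin, measured 5.94, 5.77 and 5.90 in HFD-inulin 1 to 3, against 5.95, 5.84 and 5.83 in HFD 1 to 3, a difference of -0.001. Ndufs1, the largest iron-sulfur subunit, measured 5.83, 5.73 and 5.65 in HFD-inulin 1 to 3, against 5.70, 5.57 and 5.74 in HFD 1 to 3, a difference of 0.065. The groups overlapped in both genes, and in Ndufs1 HFD-inulin 1 lay above and HFD 2 below all arrays of the other group.

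Ndufb9, an accessory subunit of the membrane arm, measured 9.93, 9.63 and 9.59 in HFD-inulin 1 to 3, against 9.69, 9.49 and 9.58 in HFD 1 to 3, a difference of 0.13. Ndufa4, first described as a complex I subunit and later placed in complex IV, measured 8.31, 8.00 and 7.94 in HFD-inulin 1 to 3, against 8.09, 7.81 and 7.96 in HFD 1 to 3, a difference of 0.13. Its paralog Ndufa4l2 was dim, between 1.45 and 1.87 in HFD-inulin arrays and between 1.61 and 1.89 in HFD arrays. HFD-inulin 1 held the highest value for Ndufb9 and Ndufa4 and the lowest for Ndufa4l2.

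Complex II, the succinate dehydrogenase, also works in the citric acid cycle. Its 4 genes split evenly, with 2 means higher and 2 lower in HFD-inulin and a median of -0.027, a sign that turned under median centring (0.006), in the high-signal arrays and without HFD-inulin 2 (0.024) or HFD 1 (0.019). The complex mean was 0.069, -0.16 and -0.001 in HFD-inulin 1 to 3, against 0.11, -0.12 and 0.018 in HFD 1 to 3. In the low-signal arrays 0 of 4 genes were higher (median -0.17), and in the high-signal arrays 2 were (median 0.045). Whether complex II differed from the other complexes was not tested, since the genes of a complex share arrays.

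Sdha, the flavoprotein that oxidises succinate, measured 7.04, 6.90 and 7.06 in HFD-inulin 1 to 3, against 7.21, 7.02 and 7.13 in HFD 1 to 3. HFD-inulin 2 was lowest and HFD 1 highest, and the difference was -0.12 (SE 0.081, limma adjusted p = 0.905). Sdhc, a membrane anchor, measured 6.24, 5.85 and 5.97 in HFD-inulin 1 to 3, against 6.30, 6.12 and 6.08 in HFD 1 to 3, a difference of -0.15 (SE 0.12). Sdhc overlapped through HFD-inulin 1.

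Sdhb, the iron-sulfur subunit, measured 6.36, 6.32 and 6.54 in HFD-inulin 1 to 3, against 6.43, 6.21 and 6.38 in HFD 1 to 3, a difference of 0.067. Sdhd, the other membrane anchor, measured 7.58, 7.23 and 7.36 in HFD-inulin 1 to 3, against 7.41, 7.09 and 7.42 in HFD 1 to 3, a difference of 0.081. Sdhb was highest in HFD-inulin 3, an array that was high in few other subunit genes.

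Complex III, the cytochrome bc1 complex, had all 9 measured genes higher in HFD-inulin by their means, from 0.008 to 0.24 with a median of 0.15. Its mean was 0.36, 0.056 and 0.019 in HFD-inulin 1 to 3, against 0.092, -0.12 and 0.022 in HFD 1 to 3, so that HFD-inulin 1 alone stood clear of the HFD arrays. None of the 9 had an unadjusted p under 0.05 (smallest 0.0715, smallest adjusted p 0.902 in limma). The medians were 0.16 within the low-signal part, 0.049 within the high-signal part.

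Uqcrh, the acidic hinge protein next to cytochrome c1, measured 7.16, 6.94 and 6.82 in HFD-inulin 1 to 3, against 6.88, 6.71 and 6.63 in HFD 1 to 3, a difference of 0.23 (SE 0.11). Uqcrq, a small membrane subunit, measured 7.14, 7.05 and 7.04 in HFD-inulin 1 to 3, against 7.01, 6.82 and 6.95 in HFD 1 to 3, a difference of 0.15. Uqcrq was the only complex III gene in which the groups did not overlap.

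Uqcrc2, a core protein on the matrix side, measured 7.27, 7.22 and 7.11 in HFD-inulin 1 to 3, against 7.09, 6.95 and 7.11 in HFD 1 to 3, a difference of 0.15. Its partner Uqcrc1 measured 7.45, 7.15 and 7.19 in HFD-inulin 1 to 3, against 7.35, 7.11 and 7.25 in HFD 1 to 3, a difference of 0.030. Uqcrb, a ubiquinone-binding subunit, measured 8.36, 8.10 and 7.93 in HFD-inulin 1 to 3, against 7.93, 7.82 and 8.04 in HFD 1 to 3, a difference of 0.20. In each of these genes at least 1 HFD array reached the HFD-inulin range.

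The catalytic subunits with a redox centre owed their difference to HFD-inulin 1. Cyc1, cytochrome c1, measured 6.90, 6.49 and 6.47 in HFD-inulin 1 to 3, against 6.60, 6.38 and 6.45 in HFD 1 to 3. Uqcrfs1, the Rieske iron-sulfur protein, measured 3.91, 3.43 and 3.43 in HFD-inulin 1 to 3, against 3.42, 3.44 and 3.45 in HFD 1 to 3. Without HFD-inulin 1 the differences became 0.001 for Cyc1 and -0.010 for Uqcrfs1, where all 6 arrays gave 0.14 and 0.15.

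Cycs, the somatic cytochrome c that carries electrons from complex III to complex IV and also triggers apoptosis when released, had one of the widest spreads. It measured 7.32, 7.43 and 6.46 in HFD-inulin 1 to 3, against 6.71, 6.56 and 6.69 in HFD 1 to 3. HFD-inulin 1 and 2 were above every HFD array and HFD-inulin 3 was below every HFD array. The HFD-inulin mean was 7.07 ± 0.53 and the HFD mean 6.65 ± 0.08 (SD, n = 3 each), a difference of 0.42 (SE 0.25, limma adjusted p = 0.902). It came to 0.67 within the low-signal part, -0.17 within the high-signal part, and without HFD-inulin 3 it was 0.72. This probe set is numbered on chromosome 19, while the gene lies on chromosome 6. The probe set numbered on chromosome 6 measured 6.68, 6.66 and 5.95 in HFD-inulin 1 to 3, against 6.14, 5.93 and 6.05 in HFD 1 to 3, and gave 0.39, with HFD-inulin 3 here between the HFD arrays.

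**Figure D3:**
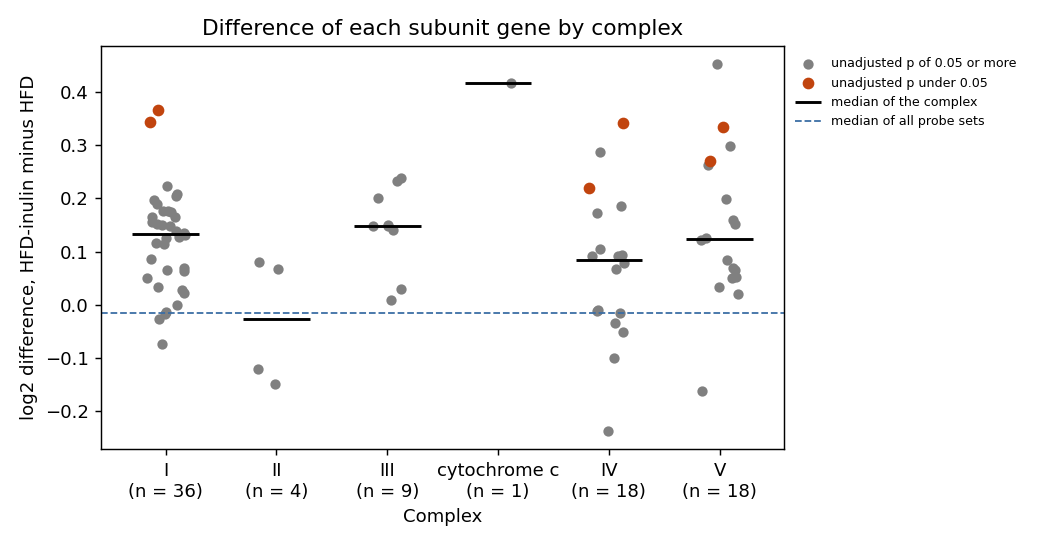
Points are the log2 differences of the 86 genes, HFD-inulin minus HFD, by complex; orange points have an unadjusted limma p under 0.05, black bars are the median of each complex and the dashed line is the median of all probe sets (-0.016). Complexes I, III, IV and V have medians from 0.084 to 0.15, complex II lies at -0.027, and Cycs and Atp5g1 lie above 0.4.

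Complex IV, cytochrome c oxidase, had 11 of 18 genes higher in HFD-inulin (61.1%, median 0.084). Brighter named genes had the same share higher, 61.1%, with a median of 0.045. Within the low-signal part 12 complex IV genes were higher (median 0.087), and within the high-signal part 9 were (median 0.008). Its mean was 0.16, 0.075 and -0.027 for HFD-inulin 1 to 3, against 0.048, -0.10 and 0.057 for HFD 1 to 3. Its genes include isoforms used in most tissues and isoforms restricted to heart, skeletal muscle, lung or testis. The 10 common isoforms had a median of 0.099, with 8 higher, and the 7 restricted isoforms (Cox4i2, Cox6a2, Cox6b2, Cox7a1, Cox7b2, Cox8b and Cox8c) had a median of -0.016, with 2 higher. The restricted isoforms had mean signals between 0.773 and 2.78, low on this array, and the muscle markers were low too, so little can be read from them.

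Cox6b1, the common subunit that bridges the monomers of the enzyme, measured 8.35, 8.19 and 7.98 in HFD-inulin 1 to 3, against 7.96, 7.61 and 7.92 in HFD 1 to 3. The groups did not overlap, though HFD-inulin 3 and HFD 1 nearly met. The HFD-inulin mean was 8.17 ± 0.18 and the HFD mean 7.83 ± 0.19 (SD, n = 3 each), a difference of 0.34 (SE 0.13, limma adjusted p = 0.902), 0.31 within the low-signal part, 0.21 within the high-signal part. Cox7a2l, which links complexes III and IV in supercomplexes and is no subunit of the isolated enzyme, measured 6.18, 6.18 and 6.14 in HFD-inulin 1 to 3, against 6.09, 5.87 and 5.89 in HFD 1 to 3. The HFD-inulin arrays were closely grouped here, and the difference of 0.22 (SE 0.079, limma adjusted p = 0.902) was 0.091 within the low-signal part, 0.26 within the high-signal part.

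Cox7a2, the liver-type isoform of its subunit, measured 6.61, 6.44 and 6.12 in HFD-inulin 1 to 3, against 6.31, 5.78 and 6.22 in HFD 1 to 3, a difference of 0.29. Its heart and muscle counterpart Cox7a1 measured 2.21, 2.48 and 2.28 in HFD-inulin 1 to 3, against 2.62, 2.29 and 2.77 in HFD 1 to 3, a difference of -0.24. Both overlapped between groups, and their unadjusted p were 0.155 and 0.138 in limma.

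Cox5a measured 6.67, 6.32 and 5.99 in HFD-inulin 1 to 3, against 6.34, 5.99 and 6.13 in HFD 1 to 3, a difference of 0.17. Cox5b measured 7.14, 6.90 and 6.59 in HFD-inulin 1 to 3, against 6.81, 6.54 and 6.71 in HFD 1 to 3, a difference of 0.19. These matrix-side subunits were highest in HFD-inulin 1 and near the bottom of the range in HFD-inulin 3 and HFD 2.

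Cox4i1, the common regulatory subunit, measured 5.27, 5.11 and 5.11 in HFD-inulin 1 to 3, against 5.22, 5.02 and 5.07 in HFD 1 to 3, a difference of 0.067. Cox6a1, the common isoform of its subunit, measured 9.20, 8.81 and 8.59 in HFD-inulin 1 to 3, against 8.98, 8.75 and 8.90 in HFD 1 to 3, a difference of -0.011. Cox8a measured 8.85, 8.42 and 8.36 in HFD-inulin 1 to 3, against 8.65, 8.25 and 8.42 in HFD 1 to 3, a difference of 0.10. The HFD-inulin group spanned a wider range than the HFD group in Cox6a1 and Cox8a, from HFD-inulin 1 at the top to HFD-inulin 3.

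Among the dim isoforms, Cox4i2 lay between 2.52 and 2.64 in HFD-inulin arrays and between 2.55 and 2.65 in HFD arrays. Cox6a2 lay between 2.27 and 2.37 in HFD-inulin arrays and between 2.17 and 2.34 in HFD arrays. Cox8b averaged 1.05 ± 0.04 in HFD-inulin and 1.06 ± 0.20 in HFD (SD, 3 arrays each). Cox7b2 lay between 0.78 and 0.85 in HFD-inulin arrays and between 0.72 and 0.73 in HFD arrays, so its groups did not overlap, at signals under the median probe set.

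**Figure D4:**
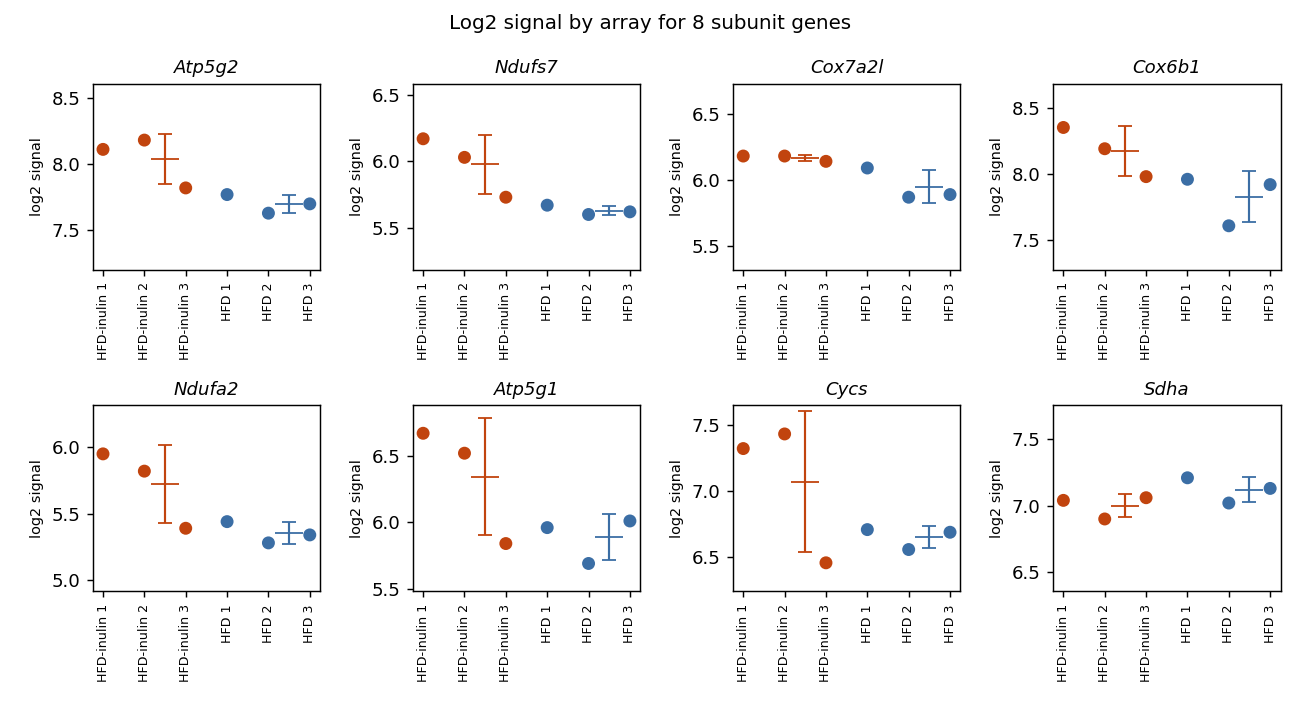
Points are the log2 signal in each array for 8 genes, HFD-inulin in orange and HFD in blue, with the mean and SD of each group beside the points; every panel spans the same range of log2 units. Atp5g2, Ndufs7, Cox7a2l and Cox6b1 have groups that do not overlap, Ndufa2, Atp5g1 and Cycs are high in HFD-inulin 1 and 2 alone, and Sdha lies lower in HFD-inulin by 0.12.

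Complex V, the ATP synthase, had 17 of 18 genes with a higher mean in HFD-inulin and a median of 0.12. Its mean was 0.30, 0.15 and -0.020 in HFD-inulin 1 to 3, against 0.070, -0.11 and 0.040 in HFD 1 to 3. Within the low-signal part 14 of 18 genes were higher (median 0.13), within the high-signal part 9 were (median 0.002), and the median with the split as a block was 0.041. The genes of the catalytic part with its central stalk differed little (Atp5a1, Atp5b, Atp5d and Atp5e, median 0.042). Those of the proton-carrying c subunit differed by more (Atp5g1, Atp5g2 and Atp5g3, median 0.33), and 10 genes of the peripheral stalk and membrane part lay between (median 0.15). In the high-signal arrays the median of the c subunit genes was 0.006.

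The 3 c subunit genes encode the same mature protein with different import signals. Atp5g1 measured 6.67, 6.52 and 5.84 in HFD-inulin 1 to 3, against 5.96, 5.69 and 6.01 in HFD 1 to 3, the largest difference among the subunit genes at 0.45 (SE 0.22, limma adjusted p = 0.902). Only HFD-inulin 1 and 2 were high, and the difference was 0.64 within the low-signal part, -0.019 within the high-signal part. Atp5g2 measured 8.11, 8.18 and 7.82 in HFD-inulin 1 to 3, against 7.77, 7.63 and 7.70 in HFD 1 to 3. Its groups did not overlap, at 8.03 ± 0.19 (HFD-inulin mean) and 7.70 ± 0.07 (HFD mean; SD, n = 3 each). Atp5g2 had the smallest unadjusted p of the 86 genes, 0.0181 in limma, with a difference of 0.33 (SE 0.11, adjusted p = 0.902), 0.38 within the low-signal part, 0.15 within the high-signal part. A second Atp5g2 probe set, numbered on chromosome 7 while the gene lies on chromosome 15, gave 0.30. Atp5g3 differed by 0.12.

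Atp5a1 and Atp5b encode the alpha and beta subunits that form the catalytic sites. Atp5a1 lay between 8.29 and 8.5 in HFD-inulin arrays and between 8.19 and 8.39 in HFD arrays, a difference of 0.050. Atp5b measured 7.84, 7.71 and 7.67 in HFD-inulin 1 to 3, against 7.78, 7.62 and 7.75 in HFD 1 to 3, a difference of 0.020. The HFD range held HFD-inulin 2 and 3 in both genes.

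Atp5l, a membrane subunit, measured 7.36, 7.40 and 7.13 in HFD-inulin 1 to 3, against 7.17, 6.99 and 7.14 in HFD 1 to 3, a difference of 0.20. The gene listed as Atp5l2 measured 7.32, 7.29 and 7.01 in HFD-inulin 1 to 3, against 6.95, 6.86 and 6.99 in HFD 1 to 3, a difference of 0.27 (SE 0.099, limma adjusted p = 0.902). The Atp5l2 groups did not overlap, though HFD-inulin 3 and HFD 3 differed by little. The Atp5l2 difference was 0.355 within the low-signal part, 0.081 within the high-signal part. The probe set kept for Atp5l is numbered on chromosome 5 and the gene lies on chromosome 9, where 2 dimmer probe sets gave 0.078 and 0.064. Signals of such near copies may share transcripts, and probe sequences were not checked.

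The membrane subunit gene Atp5j2 lay between 2.71 and 2.91 in HFD-inulin arrays and between 2.70 and 2.82 in HFD arrays. Atp5sl, now named Dmac2 and known as an assembly factor of complex I, was the lower gene of this symbol group, at -0.16. Its difference was -0.40 within the low-signal part, 0.15 within the high-signal part.

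**Figure D5:**
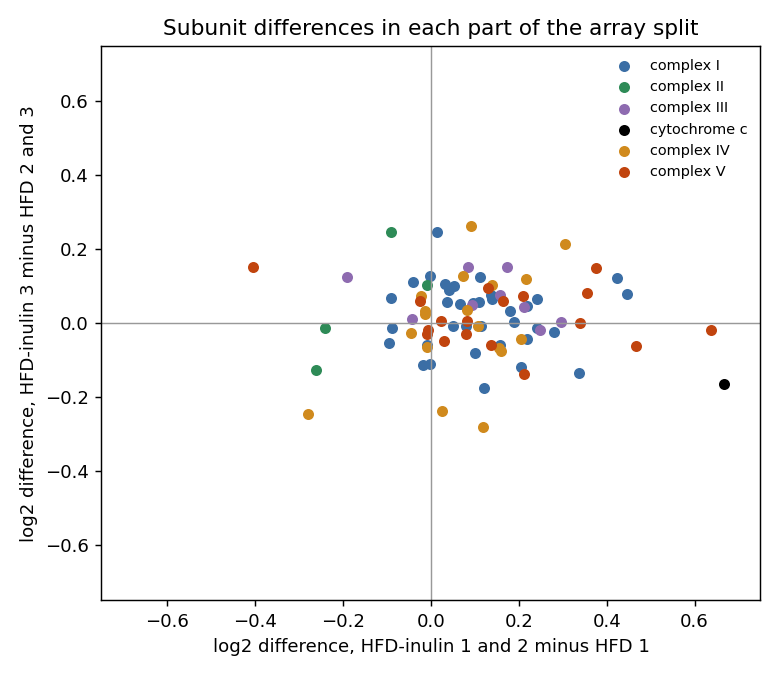
Each point is a subunit gene coloured by complex, with its log2 difference in the low-signal arrays (HFD-inulin 1 and 2 minus HFD 1) across and in the high-signal arrays (HFD-inulin 3 minus HFD 2 and 3) up. Most points lie right of 0 and scatter on both sides of 0 in height: 62 of 86 genes are above 0 in the low-signal arrays and 48 in the high-signal arrays.

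Assembly factors insert cofactors and join subunits without staying in the finished enzyme. For complex I the mean was higher in HFD-inulin for 12 of 15 (80.0%, median 0.11), beside 61.1% and 0.045 for brighter named genes. An unadjusted p under 0.05 was reached by 2 (13.3%, beside 2.52% of all probe sets and 8.49% of brighter named genes), Ndufaf4 (0.49, SE 0.17) and Timmdc1 (0.22). Ecsit followed (0.19). This list exceeded its HFD average in each HFD-inulin array, by 0.15, 0.15 and 0.062, against 0.055, -0.035 and -0.020 in HFD 1 to 3, and its median was 0.063 within the low-signal part, 0.10 within the high-signal part. Ndufaf4 measured 4.67, 4.64 and 4.17 in HFD-inulin 1 to 3, against 4.23, 3.98 and 3.81 in HFD 1 to 3. HFD 1 reached above HFD-inulin 3 in that gene.

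For complexes II to V, 17 of 25 measured assembly factors were higher by their means (68.0%), with a median of 0.046. Both values are near the 61.1% and 0.045 of brighter named genes. The median of this list was 0.059 within the low-signal part and 0.013 within the high-signal part. An unadjusted p under 0.05 was reached by 3 (12%, against the same shares as above), and groups did not overlap in 5 (20%, against 4.32% of all probe sets and 10.2% of brighter named genes). The 3 were Coa3, which helps to mature the first catalytic subunit of complex IV (0.26), the complex II factor Sdhaf3 (0.16) and Surf1 of complex IV (0.24). Genes of both assembly lists had a limma adjusted p of at least 0.902. Carriers and electron feeders had 17 of 18 higher (median 0.080), where 61.1% of brighter named genes were, but 10 within the low-signal part (median 0.034) and 13 within the high-signal part (median 0.021). None had an unadjusted limma p under 0.05 (smallest 0.0754). Those with the smallest p were the outer membrane channel Vdac3 (0.29), the ubiquinone synthesis gene Coq3 (0.36) and Aifm1 (0.13).

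Among 16 measured regulators of these genes and of mitochondrial DNA, 12 had a higher mean (75.0%, median 0.078), beside 61.1% and 0.045 for brighter named genes. Within the low-signal part 10 did (median 0.057), and within the high-signal part 10 did (median 0.044). Twnk, the mitochondrial DNA helicase, was 0.29 higher (0.303 within the low-signal part, 0.145 within the high-signal part). Tfb1m, which methylates mitochondrial ribosomal RNA, was 0.42 higher (0.532 and 0.118). Their unadjusted p were 0.0350 and 0.0473 in limma, and their groups did not overlap. These 2 are 12.5% of the list, beside 2.52% of all probe sets and 8.49% of brighter named genes. Groups lay apart upward in 3 regulators (18.8%, beside 4.32% and 10.2%). Ppargc1a had a lower mean in HFD-inulin. It measured 2.92, 2.63 and 3.67 in HFD-inulin 1 to 3, against 3.64, 3.55 and 3.90 in HFD 1 to 3, a difference of -0.62 (SE 0.26, limma adjusted p = 0.902). HFD-inulin 1 and 2 were low in Ppargc1a, and HFD-inulin 3 lay within the HFD range. Its difference was -0.86 within the low-signal part, -0.050 within the high-signal part. Ppargc1b differed by -0.27 (-0.386 within the low-signal part, -0.053 within the high-signal part). Of the factors whose motifs are shown above, Nrf1 differed by -0.034, Gabpa by 0.089 and Yy1 by 0.011.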

How the data were processed

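The values are the authors' deposited log2 signals of 65956 probe sets, 1 column per array, for which the submitters' processing notes name Affymetrix Expression Console 1.0. No source used here gives summarization, normalization or build, and log base 2 was inferred from their range. Array medians were 1.20, 1.17 and 1.25 in HFD-inulin 1 to 3, and 1.20, 1.25 and 1.26 in HFD 1 to 3. Every high-signal array thus had a higher median than every low-signal array. Detection calls were not used here. Probe sets were named by the platform annotation where it lists 1 distinct symbol (30604 probe sets). Groups were compared with limma 3.58.1 (R 4.3.3, lmFit and eBayes, two-sided), as HFD-inulin minus HFD, on all probe sets, with Benjamini-Hochberg adjustment and a threshold of 0.05. The fit was tested on simulated data. The genes and lists were chosen with earlier results of these data known. Of the list genes, 26 were not matched and are not analysed here, the mitochondrially encoded subunits among them. Named were the 4 genes of smallest p in complexes I, III, IV and V, all of complex II and cytochrome c, all with an unadjusted p under 0.05, the brightest and dimmest gene of each complex, a fixed set of catalytic and isoform genes, and up to 3 genes of each other list by p. Others, such as Atp5g3 and Atp5sl, were named after their values were seen. The 3 arrays per group limit the precision.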

Additional observations from a re-analysis of the deposited data

How the results depend on the processing

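No subunit gene passed the adjusted threshold under any of the 19 alternatives, and the adjusted p of the 41 genes named by rule ran from 0.0787 to 1.0 over them. The count with an unadjusted p under 0.05 was 6 and became 1 with a trended and robust prior, 3 with quantile normalization, 11 with array weights, 3 by ordinary least squares and 2 in the high-signal arrays alone, and it ran from 0 to 23 when 1 array was left out. With the replicate number as a block (replicate block) it was 7. The share of all probe sets is not given for these alternatives, so the counts are not set against a background. Same-numbered arrays deviated from their group means with correlations of 0.26, -0.28 and 0.40, so the numbers were not read as pairs. The number of genes with a higher mean ran from 48 in the high-signal arrays alone to 78 after median centring, and was 63 after quantile normalization. The median difference over all subunit genes, 0.12, ran from 0.018 in the high-signal arrays to 0.20 without HFD-inulin 3. After quantile normalization it was 0.063. Every such move was smaller than the spread between arrays (SD 0.119). That spread is about as large as the median itself, so even the fall to 0.018 counted as unmoved, and this yardstick cannot show that the median is stable. The complex II median of -0.027 became -0.13 after quantile normalization and -0.17 in the low-signal arrays alone, and the cytochrome c difference of 0.42 became -0.17 in the high-signal arrays alone. The causes were not tested. Of the 41 named genes, 19 changed the sign of their uncalled difference under at least 1 alternative, and none of these was among the 6 with an unadjusted p under 0.05. Leaving out the genes with a mean log2 signal under 3, chosen after seeing the data, gave a median of 0.14 over 74 genes. Low signals on these arrays limit what can be read of the restricted isoforms.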
